A study of Homo sapiens with 8 samples.

Results

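Short interspersed elements (SINEs) are short repeats that were copied through the genome by retrotransposition. The regions described here are the ChIP-seq peaks of FLAG-tagged dnTCF1E whose annotation places them in a SINE. They were chosen from the repeat class that HOMER gives for each peak, and peak score, GC content and motif matches were not used to choose them. Of 23433 peaks in 6 lists, 13765 lay in a SINE. The comparison class was the 4515 non-repeat peaks, whose annotation names no repeat.

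dnTCF1E is a dominant negative form of the Wnt transcription factor TCF1 with the alternative C-terminus called the E-tail, and it was expressed from a doxycycline-inducible construct in DLD-1 cells, a human colon cancer cell line with high Wnt signaling. dnTCF1EWT carries the intact C-clamp, the second DNA binding domain of the E-tail, and dnTCF1Emut carries a C-clamp mutation that abolishes DNA binding by that domain. Each protein was expressed in a clonal cell line of its own, grown in blasticidin and zeocin, and was collected without doxycycline (0 h, uninduced) or after 2 or 9 h with 1 µg/mL doxycycline. All 6 groups were immunoprecipitated with anti-FLAG beads, so that the 0 h lists come from the same antibody in cells that were not induced. Each list was made by the authors from pooled duplicates. No value given here therefore has a spread between replicates, and the sequencing depth behind each list is unknown. The exact tests count peaks, so that they compare 1 list with another rather than 1 condition with another, and the 95% intervals (Wilson for shares) cover counting error only. Differences between the dnTCF1EWT and dnTCF1Emut lists cannot be told apart from differences between the cell lines or their libraries.

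Alu elements are the abundant primate SINEs, derived from the RNA of the signal recognition particle, and their subfamilies run from the old AluJ through AluS to the young AluY. FLAM and FRAM elements are single-arm relatives of Alu. MIR elements (mammalian-wide interspersed repeats, which are not microRNAs) are much older and are shared among mammals. TCF1 binds DNA through its HMG domain at Wnt response elements (WREs), and the C-clamp binds a GC-rich Helper site. The lists count matches in each peak to CTTTGWWS for the WRE, to the Helper site (5′-RCCGCC-3′) and to its first letters, the short Helper site (5′-RCCG-3′), where W is A or T, S is C or G, and R is A or G.

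SINE peaks made up most of the largest list and very little of the dnTCF1Emut lists. At 0 h, 1017 of 1907 dnTCF1EWT peaks lay in a SINE (53.3%, 51.1 to 55.6%). At 2 h the count was 2765 of 5585 (49.5%, 48.2 to 50.8%), and at 9 h it was 9909 of 12996 (76.2%, 75.5 to 77.0%). Most peaks of the uninduced list thus already lay in a SINE. In dnTCF1Emut cells, 9 of 708 peaks lay in a SINE at 0 h (1.27%, 0.67 to 2.40%). At 2 h it was 53 of 1883 (2.81%, 2.16 to 3.66%), and at 9 h it was 12 of 354 (3.39%, 1.95 to 5.83%).

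**Figure D1:**
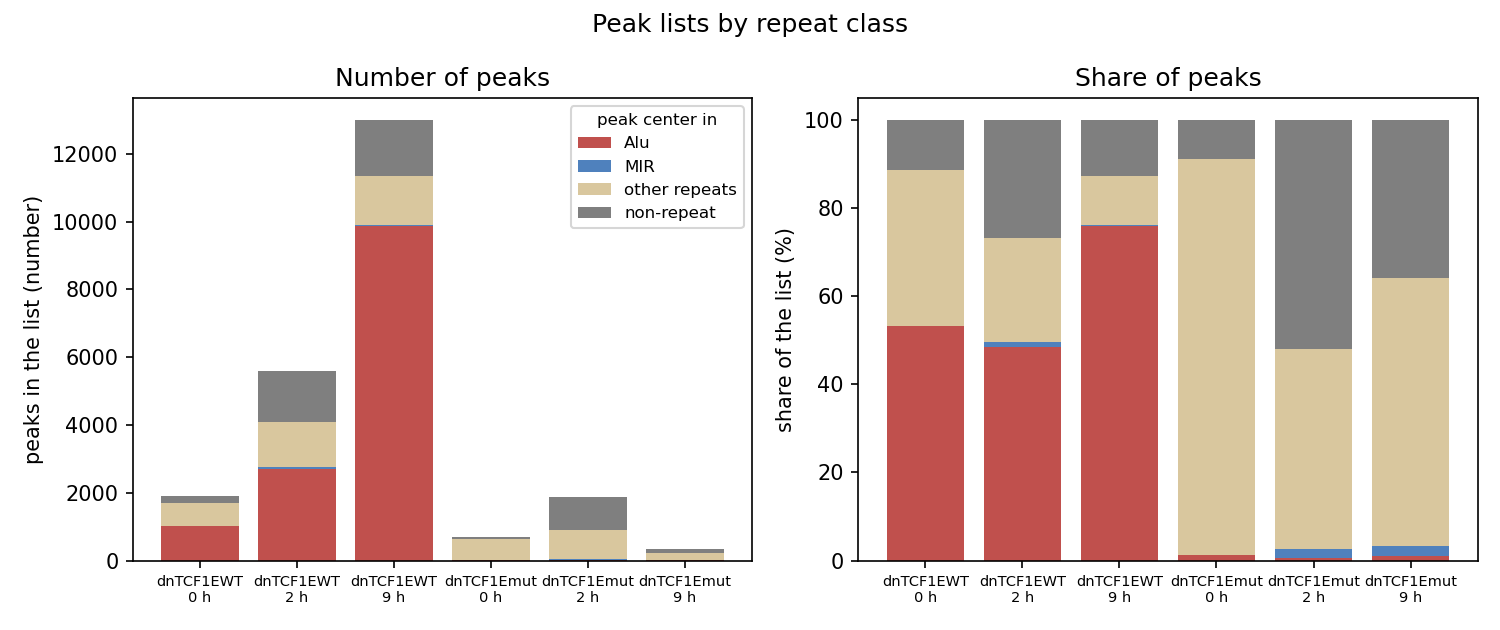
Number (left) and share in percent (right) of the peaks of each list by the element at the peak. Alu peaks fill 76.0% of the dnTCF1EWT 9 h list and 0.48 to 1.27% of the dnTCF1Emut lists, and the 3 SINE peaks in neither Alu nor MIR elements are drawn with the other repeats.

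The dnTCF1EWT share at 9 h exceeded that at 2 h with an odds ratio of 3.27 (adjusted p = 6.4e-272, Fisher's exact test on both sides, Benjamini-Hochberg over 27 comparisons of shares), and it exceeded that at 0 h with an odds ratio of 2.81 (adjusted exact p = 8.6e-90). The 2 h share was lower than the 0 h share, with an odds ratio of 0.858 (adjusted exact p = 0.00626). In strata of 5% GC content, the 2 h difference from 0 h had an odds ratio of 0.895 (0.784 to 1.02) and lost its significance. Among the top 1000 peaks of each list the order of the 0 and 9 h lists turned around: 48.5% of the 0 h peaks and 30.1% of the 9 h peaks lay in a SINE, with an odds ratio of 0.457 for 9 against 0 h (adjusted exact p = 1.1e-16).

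At each time the dnTCF1EWT list had the higher share of SINE peaks. The odds ratio of dnTCF1EWT against dnTCF1Emut was 88.7 at 0 h (45.7 to 172, adjusted exact p = 2.8e-168), 33.9 at 2 h (25.6 to 44.7, with a p below the smallest number the software holds) and 91.5 at 9 h (51.4 to 163, adjusted p = 2.8e-187). Pooled over strata of GC content, these odds ratios were 5.37 (2.46 to 11.7), 7.26 (5.40 to 9.76) and 13.1 (7.27 to 23.6). Among the top 1000 peaks at 2 h the shares were 5.9% and 2.4%, with an odds ratio of 2.55 (adjusted exact p = 0.000208). At 9 h, with only peaks scoring at least 100, the odds ratio was 3.06 and did not pass the threshold (adjusted exact p = 0.111).

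Within dnTCF1Emut, the SINE share was higher at 2 h than at 0 h with an odds ratio of 2.25 (adjusted exact p = 0.0295) and higher at 9 h than at 0 h with an odds ratio of 2.73 (adjusted p = 0.0436). Of the 708 peaks at 0 h, 557 lay in simple repeats, and the median GC content of the list was 6.32%. Without peaks below 15% GC, the 0 h share was 7.44%, the 2 h share 3.56% and the 9 h share 5.22%, and the odds ratios against 0 h changed direction to 0.459 and 0.685 (adjusted exact p = 0.0589 and 0.498). The dnTCF1Emut shares at 2 and 9 h gave an odds ratio of 1.21 with an interval of 0.641 to 2.29 (adjusted exact p = 0.679).

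The families behaved differently. All 1017 SINE peaks of the dnTCF1EWT 0 h list and all 9 of the dnTCF1Emut 0 h list were Alu peaks. At 2 h the dnTCF1EWT list held 2709 Alu and 56 MIR peaks, and at 9 h it held 9879 Alu and 29 MIR peaks. The dnTCF1Emut list held 9 Alu and 42 MIR peaks at 2 h, and 4 Alu and 8 MIR peaks at 9 h. MIR peaks thus appeared only in the 4 induced lists. A count of 0 in 1907 peaks allows a MIR share of up to 0.157% before induction in dnTCF1EWT cells, and 0 in 708 allows up to 0.424% in dnTCF1Emut cells. The MIR share was 1.00% at 2 h in the dnTCF1EWT list (adjusted exact p = 2.0e-07 against 0 h) and 2.23% in the dnTCF1Emut list (adjusted exact p = 3.8e-06 against 0 h). The latter call was lost without peaks below 15% GC (adjusted exact p = 0.0822). At scores of at least 100 both calls were lost (adjusted exact p = 1 for dnTCF1EWT, with 26 of 926 against 0 of 33 peaks, and 0.0514 for dnTCF1Emut). The 9 h dnTCF1EWT share of 0.223% did not pass the threshold against 0 h (adjusted exact p = 0.0570), but it passed in the top 1000 (0.6% against 0, adjusted exact p = 0.0420) and without Alu peaks (0.930% against 0, adjusted exact p = 0.00180).

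Because Alu peaks fill the dnTCF1EWT lists, the MIR share was also computed without them. It was then 1.95% for dnTCF1EWT and 2.24% for dnTCF1Emut at 2 h, an odds ratio of 0.866 with an interval of 0.578 to 1.298 (adjusted exact p = 0.607). Over all peaks the same comparison had an odds ratio of 0.444 (adjusted exact p = 0.000244). At 9 h the dnTCF1EWT MIR share without Alu peaks was 0.930%, below the 1.95% at 2 h with an odds ratio of 0.473 (adjusted exact p = 0.00180), whereas the Alu share over all peaks was higher at 9 h than at 2 h (odds ratio 3.36, adjusted p = 1.1e-285). The remaining 3 SINE peaks were AmnSINE elements. A pair of them covered one AmnSINE2 near MSI2, which encodes an RNA-binding protein, at (hg19, as for all positions) chr17:55484751-55484981 in the dnTCF1EWT 9 h list with a score of 81.5 and at chr17:55484818-55485014 in the dnTCF1Emut 2 h list with a score of 63.7. The other, an AmnSINE1 at chr6:140364543-140364979, had a score of 71.9 in the dnTCF1Emut 2 h list.

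Alu peaks had lower median scores than non-repeat peaks in the dnTCF1EWT lists. The peak score is the MACS score, which is larger for a smaller peak P-value and is not scaled between libraries, and the lists begin near a score of 50. Alu peaks of the dnTCF1EWT lists had a median score of 54.9 at 0 h (quartiles 52.7 and 59.4). The median was 55.5 at 2 h (52.5 and 61.3) and 56.2 at 9 h (52.2 and 62.5). These medians were alike and near the score at which the lists begin, but the upper ends differed. The highest Alu score was 97.9 at 0 h, 1079 at 2 h and 535 at 9 h. A score of 100 or more was reached by 0, 23 and 67 Alu peaks at 0, 2 and 9 h. Non-repeat peaks of the same lists had median scores of 58.8, 92.9 and 64.7. MIR peaks resembled the non-repeat peaks in score, with a median of 90.1 at 2 h (56.0 and 135) and 63.6 at 9 h (57.5 and 77.7) for dnTCF1EWT. In the dnTCF1Emut 2 h list the median score was 89.8 for 42 MIR peaks, 53.8 for 9 Alu peaks and 86.8 for 978 non-repeat peaks. These scores are a description, and no test was made over peaks.

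**Figure D2:**
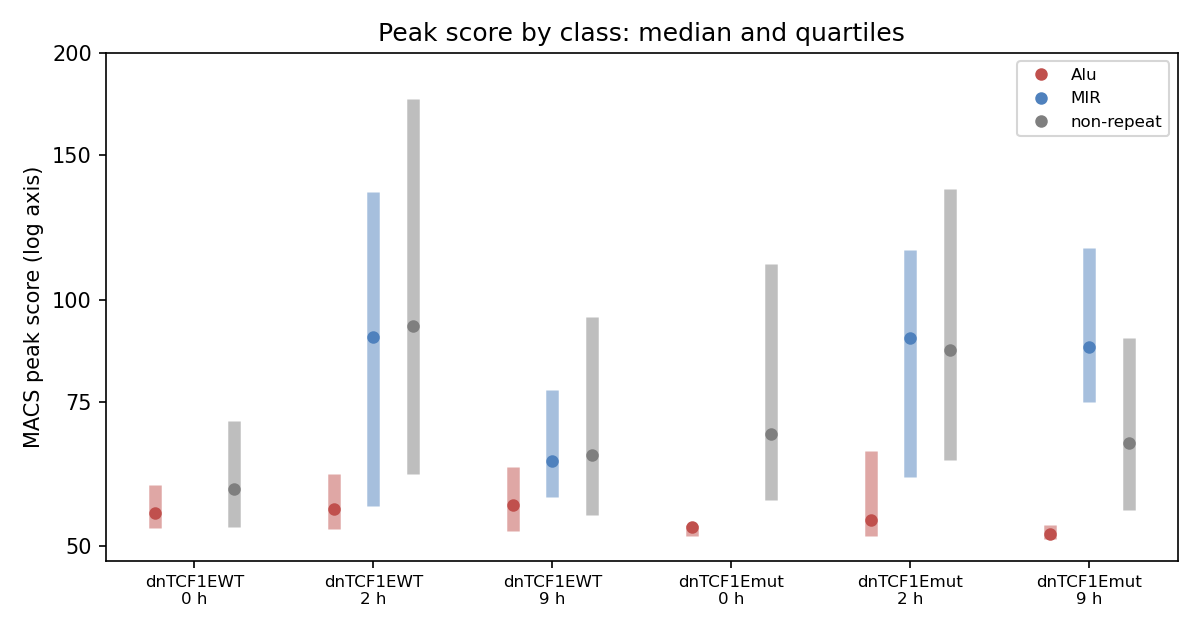
MACS peak score (log axis) of Alu, MIR and non-repeat peaks in each list, with the median as a point and the quartiles as a bar. Alu medians lie between 51.8 and 56.2 in all 6 lists, and the 0 h lists hold no MIR peak.

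Along the ranking by score, SINE peaks gathered behind the top of the induced dnTCF1EWT lists. At 2 h, 59 of the top 1000 peaks lay in a SINE (5.9%, 4.60 to 7.54%), and the share was 44.8% at ranks 1001 to 2000 and 58.3% at ranks 2001 to 3000. It reached 66.2% at ranks 5001 to 5585. The 9 h list began with 30.1% (27.3 to 33.0%) and went on with 72.9% at ranks 1001 to 2000, and the bins that followed lay between 77.2 and 85.5%. The 0 h list had 48.5% in its top 1000 and 58.7% below. In the dnTCF1Emut 2 h list the share was 2.4% in the top 1000 and 3.28% below.

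**Figure D3:**
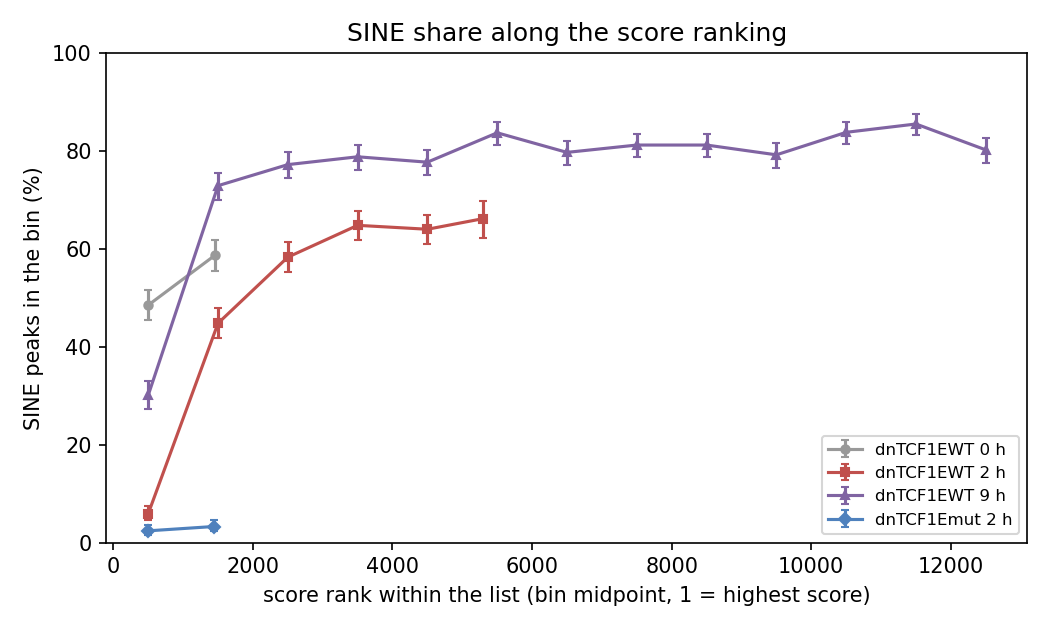
Share of SINE peaks in bins of 1000 peaks by score rank, with Wilson 95% intervals, for the lists of more than 1000 peaks. The dnTCF1EWT 2 h share starts at 5.9% and the 9 h share at 30.1%, and both lie above 44% from rank 1001 on.

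Of the 59 SINE peaks in the dnTCF1EWT 2 h top 1000, 32 were Alu and 27 were MIR. Thus 27 of 56 MIR peaks ranked in the top 1000, against 32 of 2709 Alu peaks. Among peaks with a score of 100 or more, 23 Alu and 26 MIR peaks remained of 926 at 2 h, and 67 Alu and 3 MIR peaks of 565 at 9 h. None of the 33 peaks with such a score at 0 h lay in a SINE, which allows a share of up to 9.09%. In the dnTCF1Emut 2 h list, 2 Alu and 14 MIR peaks had a score of 100 or more among 675.

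SINE peaks made up nearly all of the net growth of the dnTCF1EWT list from 2 to 9 h. The list grew by 7411 peaks net, and SINE peaks grew by 7144, which equals 96.4% of the net growth. Most peaks of the 2 h list were not kept. Of its SINE peaks 182 of 2765 overlapped a 9 h peak, and of its non-repeat peaks 482 of 1492 did. The ratio of the list lengths at 9 and 2 h was 2.33 with SINE peaks and 1.09 without them (3087 against 2820 peaks). From 0 to 2 h SINE peaks made up 47.5% of the growth, and the ratio was 2.93 with and 3.17 without them. Between the proteins at 2 h, dnTCF1EWT had 2.97 times as many peaks as dnTCF1Emut with SINE peaks and 1.54 times as many without them (2820 against 1830). At 9 h this ratio was 36.7 with SINE peaks and 9.03 without them. Ratios of list lengths carry the unknown difference in depth, and they were not tested.

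Alu peaks were short and uniform. Their median length was 179 bp at 0 h, 167 bp at 2 h and 167 bp at 9 h in the dnTCF1EWT lists, while that of non-repeat peaks was 234, 333 and 223 bp. MIR peaks had a median length of 366 bp at 2 h and 271 bp at 9 h, and 448 bp in the dnTCF1Emut 2 h list. The median GC content of Alu peaks was 51.7, 51.5 and 51.8% at 0, 2 and 9 h. The middle 50% of the Alu peaks at 9 h lay between 49.5 and 53.8% GC, a narrower range than the 44.1 to 55.5% of non-repeat peaks. MIR peaks were lower in GC, with a median of 44.7% at 2 h and 46.4% at 9 h for dnTCF1EWT and 40.9% for dnTCF1Emut at 2 h. Non-repeat peaks of those 3 lists had 45.6, 50 and 38.4%.

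Every SINE peak was annotated as intronic or intergenic, because HOMER lets promoter, exon and transcript-end annotations take precedence over repeats. In the dnTCF1EWT 9 h list 4915 of 9879 Alu peaks were intronic (49.8%), and at 2 h 1385 of 2709 were (51.1%). The median distance from an Alu peak to the nearest transcription start site (TSS) was 31.4, 33.0 and 31.8 kb at 0, 2 and 9 h. Only 70 of 2709 Alu peaks at 2 h (2.58%) and 273 of 9879 at 9 h (2.76%) lay within 2 kb of a TSS. Among MIR peaks of the 2 h list, 5 of 56 did (8.93%), and 240 of 1492 non-repeat peaks did (16.1%), a class that includes the promoter peaks.

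AluS was the most frequent Alu subfamily in all 3 dnTCF1EWT lists, with 74.1% of Alu peaks at 0 h (71.4 to 76.7%), 72.7% at 2 h (71.0 to 74.4%) and 74.3% at 9 h (73.4 to 75.2%). AluJ took 12.9, 14.9 and 12.7%, and AluY took 12.2, 11.7 and 12.6%. FLAM elements numbered 6, 17 and 29 peaks, and FRAM elements 2, 2 and 10. The Alu counts, subfamilies and positions depend on how reads that align to several copies were placed, which is not given in the sources used here, and its part in them was not tested. AluJ followed AluS and came before AluY at all 3 times, but the intervals of AluJ and AluY overlapped at 0 and 9 h. Among the 56 MIR peaks at 2 h, 26 were MIRb, 16 MIRc, 11 MIR and 3 MIR3. The 42 MIR peaks of dnTCF1Emut at 2 h were 16 MIRb, 13 MIRc, 9 MIR and 4 MIR3.

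WREs were rare in Alu peaks and frequent in MIR peaks. Matches were counted over the whole peak, so that a WRE need not lie within the element that names the peak. Where in a peak the matches lay was not tested. The share of all Alu and MIR copies of the genome with a match was not computed, so the peaks are not compared with unlisted copies. In the dnTCF1EWT 2 h list a WRE was present in 35 of 2709 Alu peaks (1.29%, 0.930 to 1.79%). It was present in 25 of 56 MIR peaks (44.6%, 32.4 to 57.6%) and in 559 of 1492 non-repeat peaks (37.5%, 35.0 to 40.0%). At 9 h these shares were 1.12% for Alu, 27.6% for MIR and 23.1% for non-repeat peaks. At 0 h a WRE was present in 14 of 1017 Alu peaks (1.38%), close to the shares after induction. In the dnTCF1Emut 2 h list, 25 of 42 MIR peaks (59.5%, 44.5 to 73.0%) and 1 of 9 Alu peaks had a WRE, and 444 of 978 non-repeat peaks did (45.4%).

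Alu and MIR peaks differed in the share with a WRE at 2 h (odds ratio of Alu against MIR 0.0162, Fisher's exact test, adjusted p = 3.7e-28 over 12 comparisons) and at 9 h (0.0298, adjusted p = 7.1e-09) for dnTCF1EWT. For dnTCF1Emut at 2 h the odds ratio was 0.0850 (adjusted exact p = 0.0438). In strata of peak length this call was lost (0.218, 0.0257 to 1.86), and in the top 1000 it was lost as well (adjusted exact p = 0.279). In strata of GC content the odds ratio at 2 h for dnTCF1EWT was 0.0288 (0.0131 to 0.0634), and in strata of peak length it was 0.0616 (0.0238 to 0.159). Over all SINE peaks, the share with a WRE was lower than in non-repeat peaks at 2 h (2.17 against 37.5%, odds ratio 0.0370, adjusted exact p = 2.0e-213) and at 9 h (1.20 against 23.1%, odds ratio 0.0404, adjusted p = 1.7e-227). Within bands of equal score these odds ratios were 0.107 (0.0787 to 0.146) and 0.0667 (0.0517 to 0.0859), and within strata of length they were 0.115 and 0.0913. Thus the share with a WRE was lower in dnTCF1EWT SINE peaks at 2 and 9 h also among peaks of like score and like length. In the dnTCF1Emut 2 h list, where MIR peaks are 42 of the 53 SINE peaks, the shares were 49.1% in SINE and 45.4% in non-repeat peaks (odds ratio 1.16, 0.666 to 2.01, adjusted exact p = 0.866), and the odds ratio was 1.33 within bands of score and 1.34 within strata of length. At scores of at least 100 in the dnTCF1EWT 2 h list, where 26 of 49 SINE peaks are MIR peaks, the shares were 34.7 and 51.6% (odds ratio 0.499, adjusted exact p = 0.0813). In the dnTCF1EWT 0 h list the shares of 1.38 and 6.88% differed (adjusted exact p = 5.4e-05), but in strata of GC content the interval of the odds ratio held 1 (0.381, 0.127 to 1.14).

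MIR peaks and non-repeat peaks were not told apart by the WRE. The odds ratio of MIR against non-repeat peaks was 1.35 with an interval of 0.787 to 2.30 for dnTCF1EWT at 2 h (adjusted exact p = 0.651) and 1.77 with an interval of 0.943 to 3.32 for dnTCF1Emut at 2 h (adjusted p = 0.323). Differences inside these intervals remain possible at these counts. In the top 1000 peaks the share with a WRE was 59.3% of 27 MIR peaks and 50.7% of 743 non-repeat peaks for dnTCF1EWT, and 77.3% of 22 and 50.2% of 570 for dnTCF1Emut.

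Helper sites were infrequent in both families. At 2 h a Helper site was present in 61 of 2709 Alu peaks (2.25%, 1.76 to 2.88%) and in 2 of 56 MIR peaks (3.57%, 0.985 to 12.1%) of dnTCF1EWT, against 261 of 1492 non-repeat peaks (17.5%, 15.6 to 19.5%). Alu peaks had a Helper site less often than non-repeat peaks at 2 h (odds ratio 0.109, adjusted exact p = 1.1e-67) and at 9 h, with 2.54 against 16.2% (odds ratio 0.135, adjusted p = 2.1e-93). MIR peaks did so too at 2 h (odds ratio 0.175, adjusted exact p = 0.0396), a call that rests on 2 of 56 peaks. At 9 h, with 2 of 29 MIR peaks, the difference did not pass the threshold (odds ratio 0.384, 0.0907 to 1.62, adjusted exact p = 0.651). By the order of annotation, peaks in promoters, exons and transcript ends can only be non-repeat peaks. Of these, 247 of 1492 at 2 h and 515 of 1638 at 9 h were neither intronic nor intergenic. Their part in the Helper site differences was not tested. In the dnTCF1Emut 2 h list, where 6.13% of non-repeat peaks had a Helper site, it was present in 2 of 42 MIR peaks (4.76%, odds ratio 0.765 with an interval of 0.181 to 3.24, adjusted exact p = 1). At 0 h the dnTCF1EWT difference between SINE and non-repeat peaks, 2.56 against 11.9%, was significant over all peaks (adjusted exact p = 1.2e-07). In strata of GC content its odds ratio was 0.993 (0.339 to 2.91) and the call was lost.

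The short Helper site, of 4 letters, was the match most often present in Alu peaks. It was found in 56.8% of them at 0 h, 54.6% at 2 h and 56.1% at 9 h. The share followed the subfamily: at 9 h it was 27.1% in 1253 AluJ peaks, 56.9% in 7340 AluS peaks and 81.9% in 1245 AluY peaks, while the median GC content of these peaks was 50.6, 51.7 and 54.0%. The same order was present at 0 h, with 30.5, 58.0 and 80.6%, and at 2 h, with 27.3, 56.2 and 81.01%. Over all SINE peaks, the short Helper site was less frequent than in non-repeat peaks at 2 h (54.7 against 68.2%, adjusted exact p = 2.4e-17) and at 9 h (56.1 against 63.6%, adjusted p = 3.2e-08). In strata of peak length these differences were lost, with odds ratios of 0.948 (0.802 to 1.12) at 2 h and 1.07 (0.942 to 1.205) at 9 h, and the direction at 9 h changed.

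**Figure D4:**
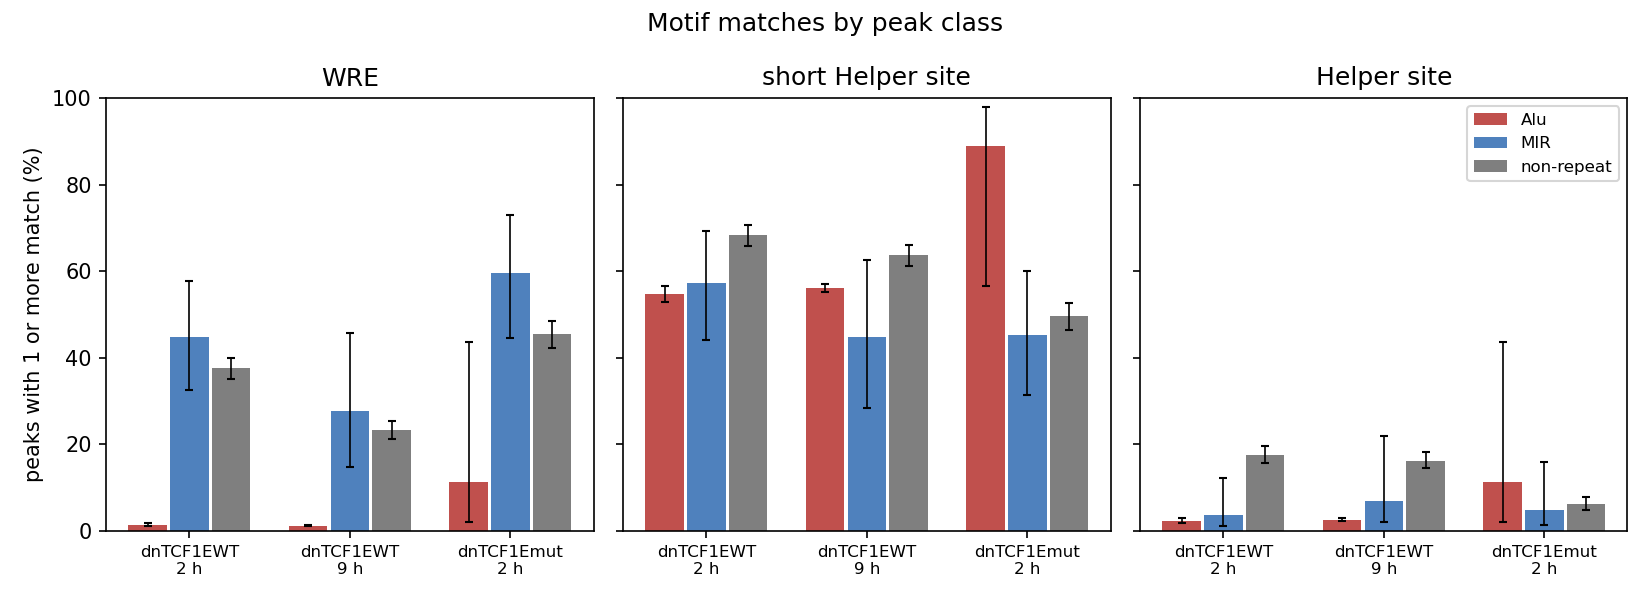
Share of Alu, MIR and non-repeat peaks with 1 or more match to the WRE, the short Helper site or the Helper site in 3 lists, with Wilson 95% intervals. A WRE is present in 1.29% of Alu and 44.6% of MIR peaks of dnTCF1EWT at 2 h, and the Alu bars of dnTCF1Emut rest on 9 peaks.

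A WRE together with a Helper site was present in 1 of 2765 SINE peaks of dnTCF1EWT at 2 h and in 4 of 9909 at 9 h, against 84 of 1492 and 72 of 1638 non-repeat peaks. Each motif alone was in few SINE peaks, with a WRE in 60 and a Helper site in 63 at 2 h, and 119 and 253 at 9 h, and whether they met less often than these counts give was not tested. The 2 h peak was a MIRc in the top 1000, at chr10:111763009-111763534 in an intron of ADD3-AS1, 2.46 kb from the TSS of ADD3, which encodes an adducin of the membrane skeleton. Its score was 205 in the dnTCF1EWT 2 h list, 467 in the dnTCF1Emut 2 h list and 119 in the dnTCF1Emut 9 h list, and the other 3 lists had no peak there. The overlapping dnTCF1Emut 2 h peak was annotated to the intron and not to the MIRc. At 2 h the higher score was that of the C-clamp mutant.

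Without SINE peaks, a larger share of the dnTCF1EWT lists held a WRE or a Helper site. The share of dnTCF1EWT peaks with a WRE was 16.3% over all peaks and 30.2% without SINE peaks at 2 h, and 6.56 and 23.7% at 9 h. With a Helper site it was 7.23 and 12.1% at 2 h, and 4.83 and 12.1% at 9 h. The dnTCF1Emut list at 2 h moved little, from 35.95 to 35.6% with a WRE. With and without SINE peaks, the dnTCF1EWT share with a WRE was higher at 2 h than at 9 h, which was not tested.

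Between proteins, SINE peaks differed in the share with a WRE and also in their families. At 2 h a WRE was present in 2.17% of 2765 dnTCF1EWT and 49.1% of 53 dnTCF1Emut SINE peaks (odds ratio 0.0230, adjusted exact p = 7.6e-26). Of the 2765, 2709 are Alu, and of the 53, 42 are MIR. At scores of at least 100, with 34.7% of 49 and 68.8% of 16, this call was lost (odds ratio 0.241, adjusted exact p = 0.0661). Among MIR peaks alone at 2 h, the shares were 44.6% of 56 and 59.5% of 42, which was not tested. At 9 h the shares over all SINE peaks were 1.20% of 9909 and 33.3% of 12 (adjusted exact p = 0.000108), where 9879 of the 9909 are Alu and 8 of the 12 are MIR. The short Helper site did not pass the threshold at 2 h, with 54.7 and 52.8% (odds ratio 1.08 with an interval of 0.625 to 1.86, adjusted exact p = 0.913), while in strata of peak length it was the more frequent in dnTCF1EWT peaks (odds ratio 3.35, 1.65 to 6.82). Over time, the share of dnTCF1EWT SINE peaks with a WRE did not pass the threshold for 2 against 0 h (odds ratio 1.59, 0.884 to 2.86) or for 9 against 0 h (0.871, 0.499 to 1.52). In the top 1000 it was higher at 2 h than at 0 h, with 28.8% of 59 against 1.86% of 485 (adjusted exact p = 1.3e-10), where 27 of the 59 are MIR peaks and the 485 are Alu peaks.

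Few Alu peaks were listed again in another condition. Of the 2709 Alu peaks of dnTCF1EWT at 2 h, 170 overlapped a 9 h peak by 1 base or more (6.28%, 5.42 to 7.25%), although the 9 h list held 9879 Alu peaks. At 4 of the 2709 a dnTCF1Emut peak was called at 2 h, and at none of them at 9 h, which allows a share of up to 0.111%. The dnTCF1Emut lists held only 9 Alu peaks at 2 h and 4 at 9 h. Of 56 MIR peaks, 12 overlapped a dnTCF1EWT 9 h peak (21.4%, 12.7 to 33.8%), 20 a dnTCF1Emut 2 h peak (35.7%, 24.5 to 48.8%) and 6 a dnTCF1Emut 9 h peak (10.7%). Of 1492 non-repeat peaks, 482 (32.3%), 368 (24.7%) and 67 (4.49%) did. Seen from the 9 h list, 177 of 9879 Alu peaks (1.79%) overlapped a 2 h peak, against 12 of 29 MIR peaks and 477 of 1638 non-repeat peaks (29.1%).

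Alu peaks of the dnTCF1EWT 2 h list overlapped less often than non-repeat peaks with the 9 h list (odds ratio 0.140, Fisher's exact test, adjusted p = 4.7e-105 over 30 comparisons) and with the dnTCF1Emut 2 h list (adjusted p = 5.2e-171). The dnTCF1Emut 2 h list held only 9 Alu peaks of 1883, so that few such overlaps could arise. That comparison is therefore not separate from the difference in Alu share. Over all SINE peaks the odds ratio with the 9 h list was 0.148 and 0.398 in bands of equal score (0.313 to 0.507). With the dnTCF1Emut 2 h list it was 0.0267 and 0.147 in bands of score, and in the top 1000 peaks, where MIR makes up 27 of 59, it was 0.693 (adjusted exact p = 0.460). For MIR against non-repeat peaks the overlap of the 2 h list with the dnTCF1Emut 2 h list had an odds ratio of 1.70 with an interval of 0.970 to 2.97 (adjusted exact p = 0.430), and with the dnTCF1EWT 9 h list it was 0.571 with an interval of 0.299 to 1.09 (adjusted p = 0.430). MIR peaks of the dnTCF1EWT 9 h list overlapped the dnTCF1Emut 2 h list more often than non-repeat peaks, at 9 of 29 against 166 of 1638 (odds ratio 3.99, 1.79 to 8.91, adjusted exact p = 0.0393 over 20 comparisons). Seen from the dnTCF1Emut 2 h list, the same pair did not pass the threshold. There 8 of 42 MIR and 162 of 978 non-repeat peaks overlapped (odds ratio 1.19, 0.539 to 2.61).

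Before induction, 29 of 1017 Alu peaks overlapped a dnTCF1EWT 2 h peak (2.85%) and 70 a 9 h peak (6.88%), below the 11.01 and 23.4% of non-repeat peaks (adjusted exact p = 5.0e-06 and 6.8e-11). The Alu peaks of the 3 dnTCF1EWT lists were thus mostly at different positions, with like medians of score, length and GC content and like subfamilies. At regions in both 2 h lists, the dnTCF1EWT score divided by the dnTCF1Emut score had a median log2 value of -0.18 over 20 MIR peaks (SD 1.37), and 7 of the 20 were higher for dnTCF1EWT. Over 368 non-repeat peaks this median was 0.54 (SD 1.16), and 245 were higher for dnTCF1EWT. Scores are not scaled between libraries, and neither set was tested.

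Single SINE peaks with high scores were found in both families. The score given for another list is that of the highest peak overlapping the named one, with the same family unless said otherwise. The highest Alu peak of all lists was an AluSx at chr2:242602046-242602587 in intron 7 of ATG4B, a protease of autophagy. It ranked 14 of the dnTCF1EWT 2 h list with a score of 1079. Its score was 535 at 9 h and 247 in the dnTCF1Emut 2 h list, and no peak was listed there at 0 h or in the dnTCF1Emut 9 h list. The peak had no WRE, no Helper site and 9 short Helper sites over 542 bp.

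The next Alu peaks of the dnTCF1EWT 2 h list were far below it. An AluSx at chr15:91403375-91403962, 8.22 kb from the TSS of the proprotein convertase gene FURIN, had a score of 263 at 2 h and 83.8 at 9 h. An AluSx1 at chr19:49975181-49975732, 2.01 kb from FLT3LG, the gene of a hematopoietic growth factor, had scores of 195 and 59.0. Neither had a WRE, and neither was in a dnTCF1Emut list.

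At 9 h the Alu peaks after ATG4B were an AluSx1 at chr7:130583292-130583731 in LINC-PINT, a long non-coding RNA gene, and an AluSx at chr1:10626564-10626878 in PEX14, a gene of peroxisomal import. The first had a score of 169 at 9 h and 52.8 at 2 h, and it had 1 WRE. The second had a score of 136 at 9 h and was in no other list.

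Alu peaks of the dnTCF1Emut 2 h list after ATG4B were an AluJr of 3547 bp at LOC286297 with a score of 125 and a FLAM_A element 32.8 kb from KLF10, the gene of a TGF-β-inducible zinc finger factor. The FLAM_A peak had a score of 65.4, with 1 WRE and 1 Helper site over its 453 bp. The overlapping dnTCF1EWT 2 h peak scored 245 and was annotated as intergenic without a repeat. The highest SINE peaks before induction were an AluSz in METTL21C with a score of 97.9 (dnTCF1EWT, 53.8 at 9 h) and an AluSz 98.7 kb from C9orf72 with a score of 67.8 (dnTCF1Emut, in no other list).

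MIR peaks reached the same heights. A MIRc at chr20:19961515-19962073 in intron 7 of RIN2, a gene of Rab GTPase regulation, ranked 19 of the dnTCF1EWT 2 h list with a score of 1027. Its score was 176 at 9 h and 76.3 in the dnTCF1Emut 2 h list. It had 1 Helper site and no WRE, and the dnTCF1EWT score at 2 h was the highest of its 3 scores.

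The next MIR peaks of that list had 1 WRE and no Helper site, and both were listed for dnTCF1Emut too. A MIRc at chr1:231763847-231764363 in intron 1 of the scaffold gene DISC1, 1.54 kb from its TSS, had a score of 438 for dnTCF1EWT and 222 for dnTCF1Emut at 2 h, and 50.9 for dnTCF1EWT at 9 h. A MIR at chr17:63779768-63780293 in an intron 42.6 kb from the TSS of CEP112, which encodes a centrosomal protein, had scores of 418 and 337 at 2 h and was in no other list. These peaks were named for their scores, so that no test was made between them.

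The highest MIR peaks of the dnTCF1Emut 2 h list were the peak near CEP112 and 2 further ones, at ranks 43, 46 and 49. Both further peaks had a lower score for dnTCF1EWT. A MIR at chr7:70035858-70036536 in intron 5 of AUTS2 had a score of 335 for dnTCF1Emut and 154 for dnTCF1EWT. A MIRb at chr20:8137007-8137726 in intron 2 of the phospholipase C gene PLCB1 had scores of 331 and 102, and 115 in the dnTCF1Emut 9 h list. Both had 1 WRE, no short Helper site and no Helper site.

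The highest MIR peaks of the dnTCF1EWT 9 h list, besides that in RIN2, ranked 138 and 219. They were annotated as intergenic and lay far from the nearest TSS. A MIR at chr10:80502706-80503106, 324 kb from the TSS of ZMIZ1-AS1, had 3 WREs and a score of 230 at 2 h and 202 at 9 h. A MIRc at chr6:145200074-145200439, 587 kb from the TSS of the utrophin gene UTRN, had no WRE and a score of 158 at 9 h. The overlapping peaks at 2 h scored 260 for dnTCF1EWT and 233 for dnTCF1Emut and were annotated as intergenic without a repeat.

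**Figure D5:**
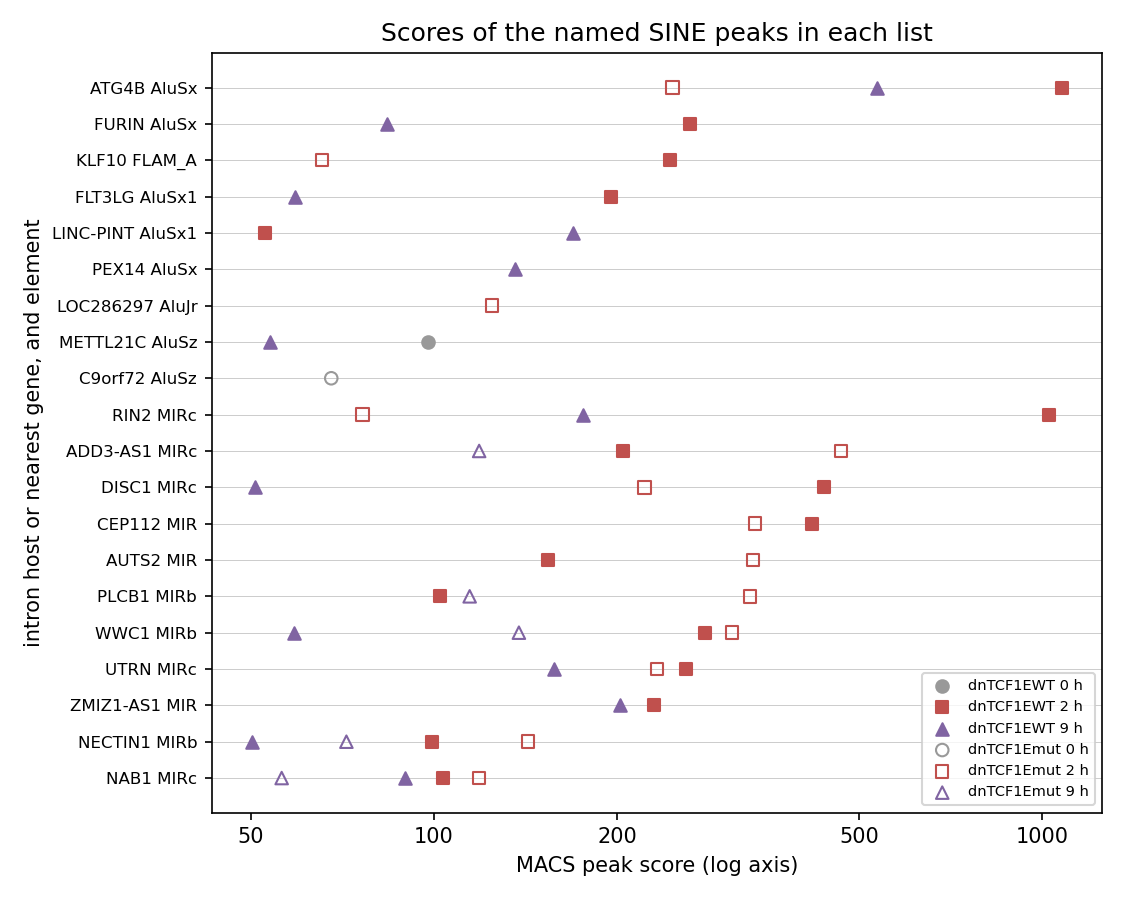
MACS peak score (log axis) of the named SINE peaks in each list, where filled symbols are dnTCF1EWT, open symbols are dnTCF1Emut, and a missing symbol means that no peak was listed. The AluSx in ATG4B at 1079 and the MIRc in RIN2 at 1027 stand above all other SINE peaks, and 3 MIR peaks have a symbol for each of the 4 induced lists. A symbol stands for an overlapping peak of any annotation.

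SINE peaks of the dnTCF1EWT 2 h list that overlapped a peak in each of the other induced lists numbered 3, and all were MIR peaks. The one in NECTIN1 was annotated to its MIRb in all 4 lists. A MIRb at chr5:167836950-167837399 in intron 8 of WWC1, a gene of the Hippo pathway, had scores of 279 and 58.8 for dnTCF1EWT at 2 and 9 h, and 309 and 138 for dnTCF1Emut. It had 1 WRE and was the highest SINE peak of the dnTCF1Emut 9 h list, and its dnTCF1EWT 9 h peak was annotated to the intron. A MIRc at chr2:191565752-191565998, 52.0 kb from NAB1, the gene of a corepressor of EGR factors, had 2 WREs and scores of 103, 89.5, 119 and 56.2 in the same order, where the dnTCF1Emut peaks were annotated as intergenic. A MIRb at chr11:119575547-119575802 in the cell adhesion gene NECTIN1 had no WRE and scores of 99.4, 50.3, 143 and 71.8. At all 3 the score was lower at 9 h than at 2 h for both proteins, and the dnTCF1Emut score was the higher at 2 h. These 3 were picked for a peak in every induced list, including the dnTCF1Emut 9 h list of 354 peaks. Scores are not scaled between libraries, and these directions were not tested.

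Wnt targets and pathway genes were examined through a list of 40 genes. At 2 h, 14 SINE peaks of dnTCF1EWT had one of 12 of these genes as the nearest gene: APC, CCND1, CD44, DKK4, EPHB2, ETS2, FZD7, PROX1, TCF7, TCF7L2, TLE1 and WNT5A. None of the 14 had a WRE or a score of 100 or more, and over all SINE peaks of that list 2.17% had a WRE and 49 of 2765 had such a score, so that a count of 0 in 14 is near the background. Their median score was 56.8, beside 55.6 over all SINE peaks of that list, and the highest was 86.6 for an AluSc5 that lay 40.0 kb from FZD7, the gene of a Wnt receptor. The single MIR peak, a MIRc 8.21 kb from the ephrin receptor gene EPHB2, had a score of 54.8.

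At 2 h, 29 of 1492 non-repeat peaks lay nearest to 18 genes of the same list. Their median score was 143, and 17 had a score of 100 or more. At 9 h, 33 of 9909 SINE peaks, all Alu, lay nearest to 19 of the 40 genes. The median score of these peaks was 56.9. The highest was 74.0 for an AluSx in TLE1, the gene of a corepressor of TCF factors. None of the 33 had a WRE, beside 1.20% of all SINE peaks of that list. Of the non-repeat peaks at 9 h, 25 of 1638 lay nearest to 14 of the genes. They had a median score of 79.1, and 10 had a score of 100 or more. Before induction 4 of 1017 Alu peaks of dnTCF1EWT lay nearest to AXIN2, BIRC5, TCF7L2 and WNT5A. No SINE peak of the 3 dnTCF1Emut lists lay nearest to a gene of the list. These lists hold only 9, 53 and 12 SINE peaks, and 14 of 2765 did in the dnTCF1EWT 2 h list, so that a count of 0 is near that share.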

How the data were processed

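ChIP-seq with anti-FLAG beads was measured in 6 of the 8 samples. Both input samples were not used here. Per the labels and the submitters' processing notes, reads were processed with CASAVA 1.8.2 and Bowtie2 2.0.0 on hg19, peaks were called with MACS 1.3, and peaks were annotated with HOMER 3.16. How reads that align to several copies of a repeat were treated is not given in the sources used here. The authors pooled duplicates before calling peaks, although the labels describe most libraries as first replicates.

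The deposited score of each peak is the MACS score, and the deposited GC content is a fraction, given here in percent. Motif counts and distances to the TSS were used as deposited by the authors. Depth is unknown from the lists.

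A SINE peak has the class SINE in its detailed annotation, a non-repeat peak has no repeat there, and the family is Alu, MIR or other. Peaks were ranked by score. Fisher's exact test, two-sided, was used to compare shares, with Benjamini-Hochberg adjustment within each family of comparisons and a threshold of 0.05. Where a cell was 0, 0.5 was added for the odds ratio. The limit of a zero count is 3 peaks. Alternatives were the top 1000 peaks, a score of 100 or more, an overlap of 50% of both peaks, peaks without those overlapping a 0 h peak or below 15% GC, and odds ratios pooled by the Mantel-Haenszel method over strata of GC content (5%) or length (cut at 150, 250, 400 and 600 bp). Chosen after seeing the data were bands of score (cut at 55, 60, 67 and 100), the MIR share without Alu peaks, the lists without SINE peaks, each family against non-repeat peaks and the ratio of odds ratios (Woolf). The tests were checked on simulated lists.

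The peaks named are the 3 highest Alu and the 3 highest MIR peaks of the dnTCF1EWT 2 h, dnTCF1EWT 9 h and dnTCF1Emut 2 h lists, the highest SINE peak of each other list, SINE peaks in all 4 induced lists, SINE peaks with a WRE and a Helper site in the dnTCF1EWT 2 h top 1000, and SINE peaks near the Wnt list. The 3 AmnSINE peaks were named after their values were seen. The class and the lists were chosen with earlier results of these data known. Intron hosts and current gene names came from a RefSeq table. Statistics were computed with SciPy 1.17.1 and statsmodels 0.14.6 under Python 3.11.15, tables were handled with pandas 2.3.3 and NumPy 2.4.6, and figures were drawn with matplotlib 3.10.9.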

Additional observations from a re-analysis of the deposited data

Results flagged for a closer look

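The change of the SINE share with time differed between the lists of the 2 proteins. For 2 against 0 h the odds ratio was 0.858 for dnTCF1EWT and 2.25 for dnTCF1Emut, a ratio of 0.381 (Woolf's method over peaks, 0.186 to 0.783). Without peaks below 15% GC the odds ratios were 0.859 and 0.459, so that the order of the proteins turned around. For 9 against 2 h the odds ratios were 3.27 and 1.21, a ratio of 2.70 (1.42 to 5.13). The MIR share moved the other way from 2 to 9 h, with odds ratios of 0.221 and 1.01 and a ratio of 0.218 (0.0897 to 0.529). The dnTCF1EWT denominator includes the Alu peaks, and without them its odds ratio for MIR was 0.473. These 3 of 6 comparisons passed the threshold after adjustment. For Alu peaks, which make up most SINE peaks of dnTCF1EWT, neither did, with a ratio of 2.21 (0.869 to 5.62) for 2 against 0 h, opposite in direction to that of all SINE peaks, and 1.41 (0.432 to 4.63) for 9 against 2 h. The MIR ratio for 2 against 0 h was 1.19 (0.0232 to 61.4). They compare pooled lists, and a difference between the proteins cannot be told apart from one between cell lines or libraries.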

How the results depend on the processing

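No paired analysis was possible because each condition is 1 list made from pooled duplicates, and no replicate could be left out. For the 21 results that answer a comparison, 91 of 111 alternative values kept their direction and their side of the threshold, and the cause of the others was not tested. Results that reversed under an alternative were the SINE share of dnTCF1EWT at 2 against 0 h at a score of 100 or more (odds ratio 3.78, from 49 of 926 against 0 of 33 peaks) and at 9 against 0 h in the top 1000 (0.457), and that of dnTCF1Emut in strata of GC content (0.466 at 2 h and 0.376 at 9 h against 0 h) and without peaks below 15% GC (0.459 and 0.685). The Alu share reversed likewise, at 2 against 0 h at a score of 100 or more (1.74) and at 9 against 0 h in the top 1000 (0.444). The MIR share of dnTCF1EWT against dnTCF1Emut at 2 h reversed at a score of 100 or more (1.36) and in the top 1000 (1.23).

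Lost calls of the SINE share were dnTCF1EWT at 2 against 0 h in strata of GC content (0.895), dnTCF1Emut at 2 against 0 h in the top 1000 (1.91) and dnTCF1EWT against dnTCF1Emut at 9 h at a score of 100 or more (3.06). For SINE against non-repeat peaks of dnTCF1EWT at 2 h, calls at a score of 100 or more were lost for the WRE (0.499), the Helper site (0.330) and the short Helper site (0.791). The short Helper site at 2 h was lost also in bands of score (0.859), strata of length (0.948) and the top 1000 (0.625). At 9 h it was lost in bands of score (0.896), at a score of 100 or more (0.987) and in the top 1000 (0.697), and it reversed in strata of length (1.07). The Alu against MIR odds ratio of the short Helper site at 2 h reversed in strata of length (2.46). In the top 1000, the overlap of the dnTCF1EWT 2 h list with dnTCF1Emut at 2 h lost its call (0.693), and that with dnTCF1Emut at 9 h reversed (1.36). Comparisons with the 9 to 53 SINE peaks of the dnTCF1Emut lists are limited by these counts.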
